A study of Mus musculus with 20 samples.

Results

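The mitochondrial genome encodes 7 subunits of respiratory complex I, and their transcripts were followed here in the hippocampus of aged mice that carried human APOE3 or APOE4. The members were taken by name, mt-Nd1, mt-Nd2, mt-Nd3, mt-Nd4, mt-Nd4l, mt-Nd5 and mt-Nd6, which makes 7 of the 33119 genes in the count table. All of them were found, and all passed the filter on low counts. RNA was sequenced from 20 mice, 5 in each of 4 groups: hAPOE3 females (mice S144 to S148), hAPOE3 males (S154 to S158), hAPOE4 females (S164 to S168) and hAPOE4 males (S174 to S178). Every mouse was a homozygous targeted replacement animal on the C57BL/6 background, in which human APOE stands in place of the mouse gene, and every mouse was 16 months old. There was no group with mouse Apoe, so differences run between the human alleles and not against a wild-type mouse. The hippocampi were dissected as whole tissue after perfusion with saline, so all cell types contribute to each value, and fewer cells of a type cannot be told apart from less RNA per cell.

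Complex I is the entry point of the respiratory chain: it takes electrons from NADH, passes them to ubiquinone and pumps protons across the inner mitochondrial membrane. The subunits encoded in the mitochondrial genome form the core of its membrane arm, which carries the proton channels, whereas the subunits of the matrix arm, which holds the flavin and the iron-sulfur clusters, are encoded in the nucleus. Mitochondrial DNA is read from both strands as long precursors, which are then cut into single RNAs, and neurons depend on the chain for most of their ATP.

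Each member is a single exon without introns, and the gene layout sets what could be counted. On GRCm38, 6 of the members are read from the plus strand of the annotation (here called the heavy-strand genes), and mt-Nd6 alone is read from the minus strand (the light-strand gene), at MT:13552-14070. Its sense sequence is built differently: mt-Nd6 holds 28.1% G and 6.0% C, whereas the other 6 hold 8.0% to 11.6% G and at least 22.1% C. The first bases of the neighbours mt-Nd5 and mt-Nd6 are shown because they make this skew visible, with the first codon in capitals.
mt-Nd5, MT:11742-11801, plus strand: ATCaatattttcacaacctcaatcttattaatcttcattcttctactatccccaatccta
mt-Nd6, MT:14011-14070, minus strand: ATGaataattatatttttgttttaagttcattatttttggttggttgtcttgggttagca
The 3′ ends of both genes lie over each other on opposite strands for 14 bases, which are in capitals in the next pair; each gene ends with the TAA of its own strand.
mt-Nd5, MT:13536-13565, plus strand: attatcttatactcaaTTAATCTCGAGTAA
mt-Nd6, MT:13552-13581, minus strand: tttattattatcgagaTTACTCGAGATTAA
The sources used here do not say whether the libraries kept the strand, so sense reads of mt-Nd6 and antisense reads of the opposite strand could not be told apart. The libraries were also made from polyA RNA, and the human counterpart of mt-Nd6 is known for lacking a polyA tail.

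A second pair shares a messenger. mt-Nd4l (MT:9877-10173) and mt-Nd4 (MT:10167-11544) are read from 1 RNA and overlap by 7 bases, so the start codon of mt-Nd4 lies inside the last codons of mt-Nd4l (capitals).
mt-Nd4l, MT:10144-10173, plus strand: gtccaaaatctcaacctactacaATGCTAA
mt-Nd4 itself ends in a bare T, 1 base beyond its whole codons, a stop that is completed by the polyA tail in mitochondrial mRNA. mt-Nd1 (MT:2751-3707) and mt-Nd2 (MT:3914-4951) lie upstream, and mt-Nd3 (MT:9459-9806) lies just before mt-Nd4l. All sequences and positions are from the GENCODE transcripts of GRCm38.

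mt-Nd3 shares its sequence with the nuclear genome. Gm28438, an unprocessed pseudogene at chr1:24612775-24613119 on the minus strand, matched mt-Nd3 over 345 of its 348 bases with 1 difference, T3C counted from 1 at the 5′ end of mt-Nd3 (capital in each line below).
mt-Nd3, MT:9459-9481, plus strand: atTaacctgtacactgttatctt
Gm28438, chr1:24613097-24613119, minus strand: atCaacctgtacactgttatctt
Reads from the rest of the gene fit both equally, and the authors' counting divided them: Gm28438 received 16710 to 34164 counts per mouse, or 183% to 444% of the counts of mt-Nd3. The values of mt-Nd3 are therefore uncertain, and each is also given with the counts of Gm28438 added. Nuclear copies of mt-Nd4 (Gm28439, identical over 876 bases) and mt-Nd4l (Gm10222, identical over 294 bases) are in the annotation but not among the rows analysed here. Whether reads of mt-Nd4 and mt-Nd4l were divided in the same way could not be seen. The copies of mt-Nd2 (Gm13339) and mt-Nd5 (Gm4076) held at most 0.00226% and 0.138% of the counts of their mitochondrial genes. Copies were searched for the members only.

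Total counts ran from 35778879 to 52520279 per mouse, and the lowest count of any member in any mouse was 4885, so differences between mice and not counting error set the precision. The members' share of a library differed between mice, from 1.601% in S168 to 2.907% in S148. Together they took 2.59% ± 0.32 of all counts in hAPOE3 females (SD, n = 5), 2.29% ± 0.14 in hAPOE3 males, 2.09% ± 0.31 in hAPOE4 females and 2.11% ± 0.30 in hAPOE4 males. Markers of neurons, astrocytes, oligodendrocytes and microglia were present in every group, as were the hippocampal subfield genes, and none of the markers was at 0 across a group. Over both sexes, 2 of these marker genes passed in the genotype comparison, where 2.45% of all genes tested did: Kdr, a receptor on endothelial cells, was higher in hAPOE4 mice by 0.49 on the log2 scale (SE 0.12, adjusted p = 0.0363 in edgeR), and Bok, on the subfield list, by 0.50 (SE 0.12, adjusted p = 0.0326). The 10 endothelial genes had a median of 0.18 there, with 2 of them below 0, against a median of 0.0016 for all genes tested. Their part in the results on the members was not tested. The choroid plexus list, 12 genes of a tissue beside the hippocampus, ranged from 80.4 to 6656 summed CPM across mice (CPM: counts scaled to a common library size after TMM normalization), with overlapping ranges in all 4 groups. Haemoglobin and other blood genes reached 302.6 summed CPM in the hAPOE3 groups and 64.9 in the hAPOE4 groups. All 5 were lower in value in hAPOE4 mice of both sexes, with a median of -1.56 over both sexes, and 0 of 5 passed. The part of the blood genes was not tested either.

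Of the 20 libraries, 5 stood apart in the nuclear genes of complex I. A score was computed for each mouse as the mean, over 36 nuclear complex I genes, of log2 CPM centred per gene. It lay between 0.27 and 0.43 in hAPOE3 females S147 and S148 and hAPOE3 males S156, S157 and S158, and between -0.34 and 0.05 in the other 15 mice. The other 5 hAPOE3 mice had the lower scores, -0.34 to -0.16, and the 10 hAPOE4 mice lay between -0.17 and 0.05. The labels name nothing that separates these mice. The genotype differences of the members are given with and without them. Leaving them out moved other genes too: the difference of Kdr over both sexes was then 0.32 (adjusted p = 0.258) and that of Bok 0.69 (adjusted p = 0.0181), and the median of the choroid plexus list in males went from 0.40 to 2.95.

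Levels per length differed widely between the members. The full annotated length was used, with no correction for the fewer read positions in short genes. mt-Nd4l (297 bases) and mt-Nd4 (1378 bases) are read from 1 RNA and still differ below. The scale therefore need not rank the members by RNA abundance. On the scale of CPM per kilobase of gene, mt-Nd1 (5373 ± 822, SD over 20 mice) and mt-Nd4 (5342 ± 849) were highest, followed by mt-Nd2 (3689 ± 565), mt-Nd4l (2901 ± 591), mt-Nd6 (2367 ± 541), mt-Nd5 (2258 ± 350) and mt-Nd3 (555 ± 118). Neighbours in this order could not always be separated: mt-Nd1 exceeded mt-Nd4 in 9 of 20 mice, mt-Nd6 exceeded mt-Nd5 in 10 and mt-Nd4l exceeded mt-Nd6 in 16. mt-Nd4 exceeded mt-Nd2, and mt-Nd2 exceeded mt-Nd4l, in all 20 mice. With the counts of Gm28438 added, mt-Nd3 came to 2051 ± 380 CPM per kilobase, close below mt-Nd5.

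**Figure D1:**
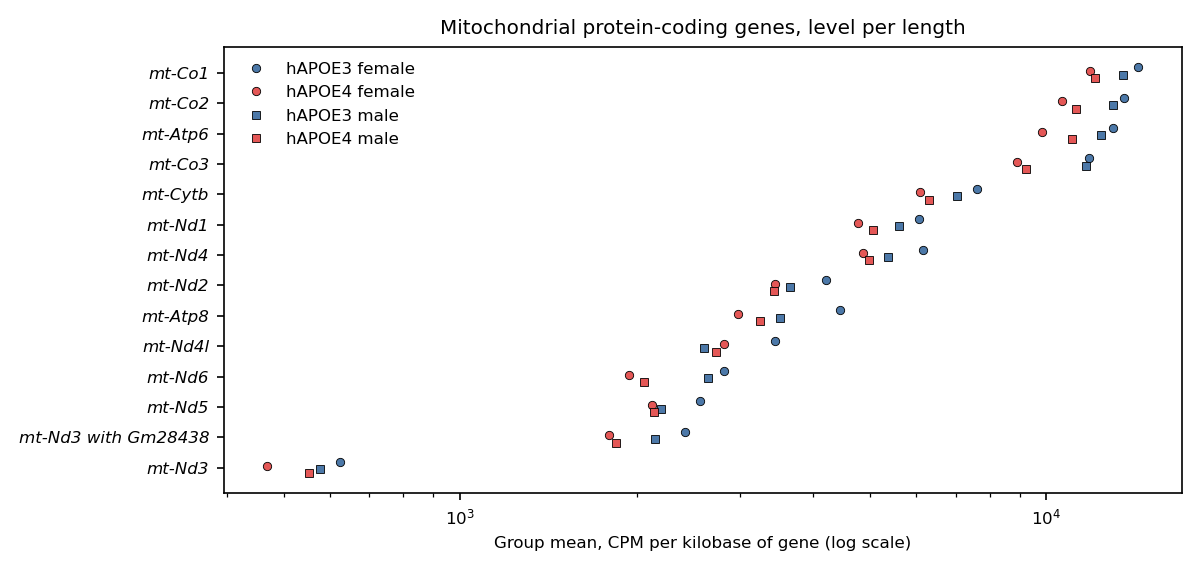
Group means of TMM-normalized CPM per kilobase (log axis) for all 13 mitochondrial genes that encode protein, with circles for females, squares for males, blue for hAPOE3 and red for hAPOE4. The members lie below the subunits of cytochrome c oxidase, and mt-Nd3 is lowest, far below the rest as counted (555) and close below mt-Nd5 with the counts of its nuclear copy added (2051).

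The other mitochondrial protein-coding genes frame these levels. mt-Co1, the catalytic subunit of cytochrome c oxidase (complex IV), stood at 12972 ± 1752 CPM per kilobase, and mt-Cytb, the cytochrome b of complex III, at 6766 ± 1101. Of the 6 genes of complexes III to V, only mt-Atp8 (3545 ± 805), a short subunit of ATP synthase, had a mean below those of mt-Nd1, mt-Nd4 and mt-Nd2.

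The comparison of APOE genotypes asked whether these transcripts differed between hAPOE4 and hAPOE3 mice of the same sex, and on average over the sexes. Each gene was tested with edgeR's quasi-likelihood test among the 21724 genes that passed the filter, and a gene passed when its Benjamini-Hochberg adjusted p was under 0.05. mt-Nd6 was the only member that passed: over both sexes its fitted level in hAPOE4 mice was 0.732 times that in hAPOE3 mice. The 6 heavy-strand members pointed the same way in females, at smaller sizes, and none of them passed. In males their values ran from -0.15 to 0.07. The 6 other mitochondrial protein-coding genes, also on the plus strand, were lower in value in both sexes, and none passed. Among them, mt-Atp8 differed by -0.57 in females (mt-Nd6 -0.54) and mt-Co3 by -0.34 in males (mt-Nd6 -0.36). The call on mt-Nd6 was lost without the 5 hAPOE3 mice with high nuclear complex I scores, which also had their groups' highest mt-Nd6 levels.

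mt-Nd6, a subunit of the membrane arm, had 1160, 1557, 1221, 1631 and 1745 CPM in hAPOE3 females and 1125, 962, 1015, 1099 and 842 CPM in hAPOE4 females. In males it had 1062, 1230, 1821, 1351 and 1401 CPM with hAPOE3 and 973, 1178, 827, 1244 and 1122 CPM with hAPOE4. Every hAPOE4 female was below every hAPOE3 female, which held for 1 of the 7 members and for 2.29% of all genes tested. The male groups overlapped, as they did for all members (0.879% of genes tested were lower in males without overlap). The 3 highest hAPOE3 males and the 2 highest hAPOE3 females were the mice with high nuclear complex I scores.

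The fitted difference of mt-Nd6 over both sexes was -0.45 on the log2 scale (SE 0.11, 95% interval -0.67 to -0.23), with an adjusted p of 0.0278 in edgeR's quasi-likelihood test. In that comparison 2.45% of all genes tested passed. By sex, mt-Nd6 differed by -0.54 in females (SE 0.15, adjusted p = 0.120) and by -0.36 in males (SE 0.15, adjusted p = 0.473), and neither value passed. Without the 5 hAPOE3 mice with high scores, which left 3 hAPOE3 females and 2 hAPOE3 males, the difference over both sexes was -0.24 with an adjusted p of 0.279. By sex it was then -0.38 in females (adjusted p = 0.298) and -0.11 in males (adjusted p = 0.911). These 5 mice had the highest mt-Nd6 levels of their groups, so a smaller difference is built into this fit. Leaving out single mice gave adjusted p-values of 0.0142 to 0.0604, and the call was lost without S147, S148, S165, S168 or S176 in turn.

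**Figure D2:**
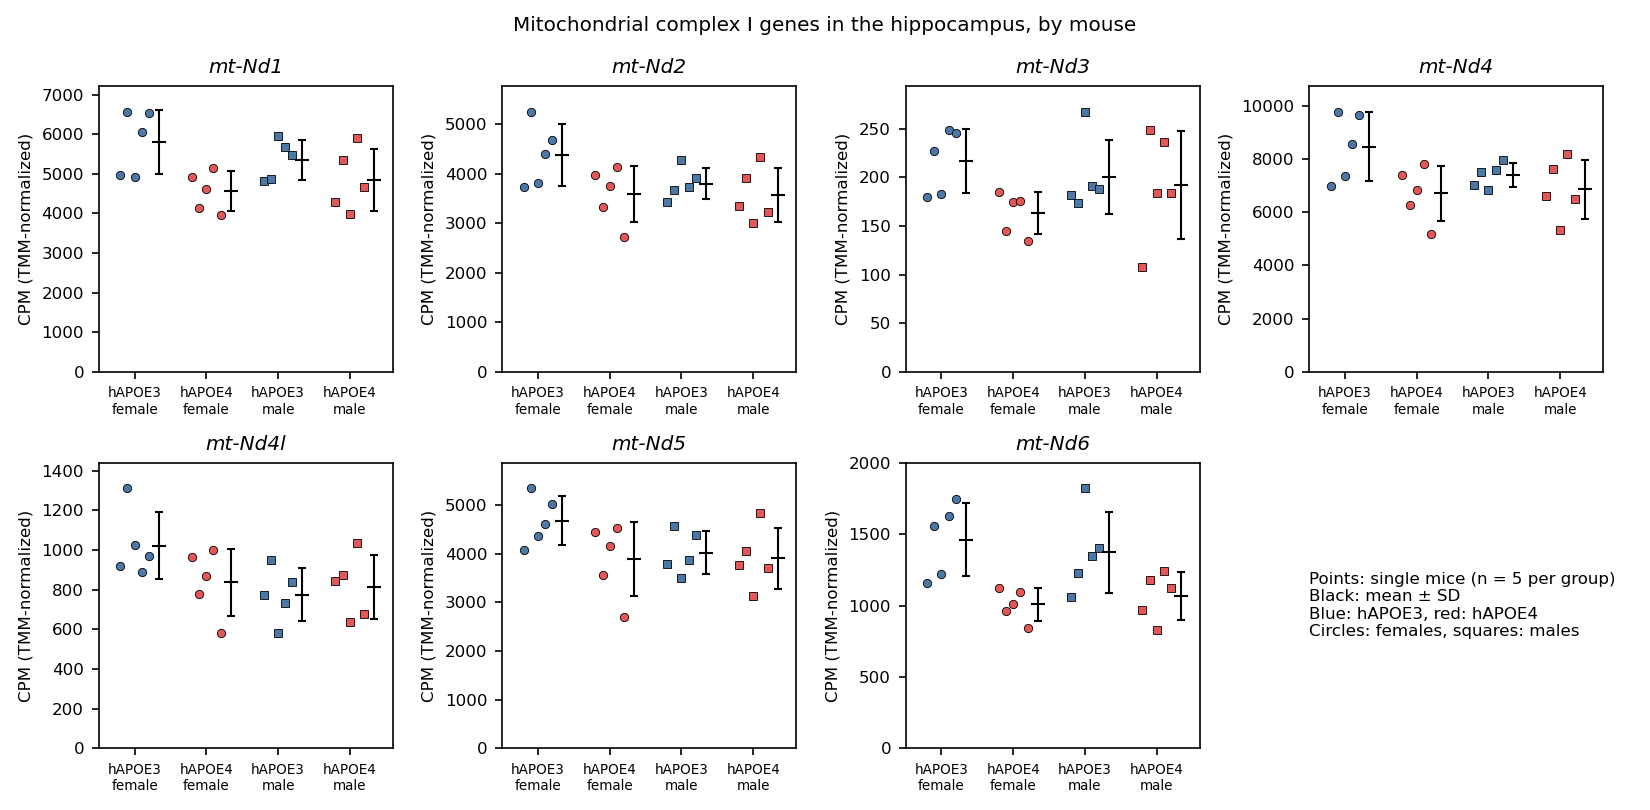
TMM-normalized CPM of the 7 members in each mouse (points; blue hAPOE3, red hAPOE4; circles females, squares males) with the group mean and SD in black, n = 5 per group. The hAPOE3 and hAPOE4 females do not overlap for mt-Nd6, at 1160 to 1745 against 842 to 1125 CPM, and overlap for the other members.

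mt-Nd1, the subunit at the entry of the quinone channel, came closest among the heavy-strand genes. It had 4978, 6564, 4923, 6063 and 6532 CPM in hAPOE3 females and 4912, 4144, 4623, 5154 and 3955 CPM in hAPOE4 females. The groups overlapped in a narrow range, with S167 above the lowest hAPOE3 females. In males it had 4810, 4877, 5950, 5687 and 5466 CPM with hAPOE3 and 4287, 5361, 3984, 5896 and 4673 CPM with hAPOE4. Of the hAPOE4 males, 3 lay below all hAPOE3 males, S175 lay below the 3 highest of them and S177 below the highest alone. The difference was -0.35 in females (SE 0.13, adjusted p = 0.294), -0.15 in males (SE 0.13, adjusted p = 0.714) and -0.25 over both sexes (SE 0.09, adjusted p = 0.149). Leaving out the 5 mice with high scores gave -0.27 in females (adjusted p = 0.499), -0.0095 in males (adjusted p = 0.993) and -0.14 over both sexes (adjusted p = 0.559).

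mt-Nd2, mt-Nd4 and mt-Nd5 encode the 3 large antiporter-like subunits of the membrane arm. mt-Nd4, the most abundant member by counts, had 6985, 9773, 7363, 8588 and 9661 CPM in hAPOE3 females and 7406, 6290, 6853, 7821 and 5197 CPM in hAPOE4 females. Its female groups overlapped, and its difference was -0.34 in females (SE 0.14, adjusted p = 0.382) and -0.11 in males (SE 0.14, adjusted p = 0.808). mt-Nd2 had 3738, 5242, 3806, 4393 and 4677 CPM in hAPOE3 females and 3973, 3326, 3741, 4137 and 2730 CPM in hAPOE4 females, and only S165 and S168 lay below all hAPOE3 females. It differed by -0.29 in females (adjusted p = 0.468) and -0.09 in males (adjusted p = 0.837). mt-Nd5, the subunit at the far end of the arm, had the smallest difference in females, -0.27 (SE 0.14, adjusted p = 0.551), and -0.04 in males (adjusted p = 0.935). Among hAPOE4 females S168 was lowest for all 3 genes, with 2705 CPM of mt-Nd5 against 3569 to 4526 in the other 4 and 4071 to 5335 in hAPOE3 females. For mt-Nd2, mt-Nd4 and mt-Nd5 the differences without the 5 mice were -0.25, -0.26 and -0.24 in females and 0.0008, -0.10 and -0.11 in males.

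mt-Nd4l and mt-Nd3 encode small membrane subunits. mt-Nd4l had 918, 1309, 1024, 887 and 967 CPM in hAPOE3 females and 965, 778, 868, 998 and 579 CPM in hAPOE4 females, which overlap. Its difference was -0.29 in females (SE 0.16, adjusted p = 0.599) and 0.07 in males (SE 0.16, adjusted p = 0.908). In males it was the only member with a value above 0, and that sign turned without S156 or S177, and without the 5 mice with high scores (-0.09, against -0.37 in females).

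mt-Nd3 as counted had 180, 227, 183, 248 and 245 CPM in hAPOE3 females and 185, 145.2, 174.7, 176.1 and 135 CPM in hAPOE4 females. In hAPOE4 males it spread from 108 CPM in S174 to 249 CPM in S175, the widest relative spread of any member in any group (coefficient of variation 29.1%). The difference was -0.41 in females (SE 0.18, adjusted p = 0.426) and -0.06 in males (SE 0.18, adjusted p = 0.927). With Gm28438 added, the values were -0.43 in females (SE 0.13, adjusted p = 0.158) and -0.22 in males (SE 0.13, adjusted p = 0.598). Over both sexes the sum differed by -0.33 (SE 0.09, adjusted p = 0.0589), which did not pass, against -0.23 for mt-Nd3 alone. mt-Nd3 alone, without the 5 mice with high scores, differed by -0.27 in females, 0.11 in males and -0.08 over both sexes.

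**Figure D3:**
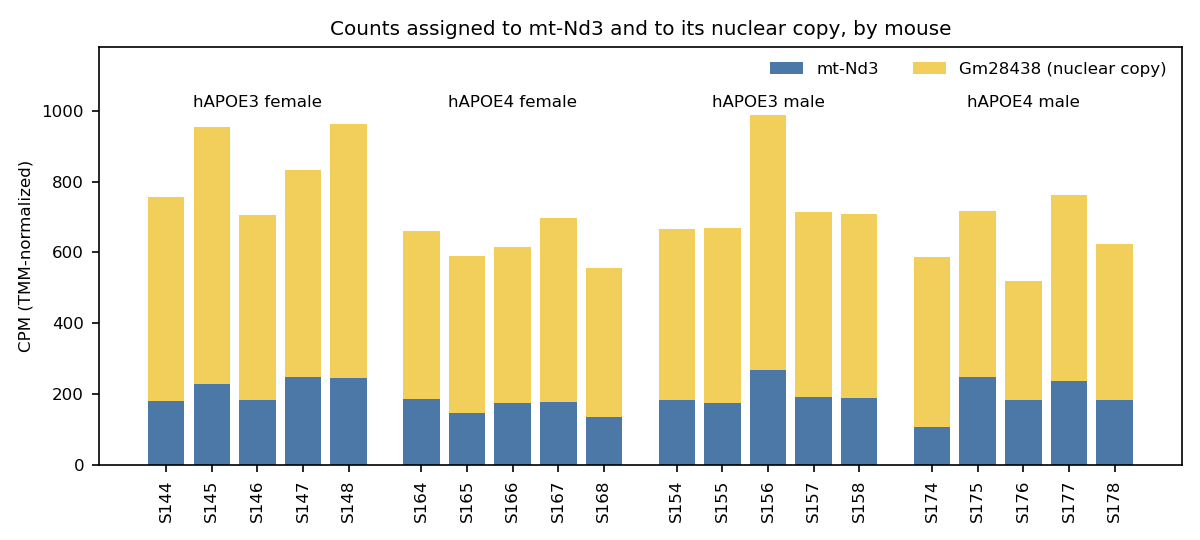
TMM-normalized CPM assigned to mt-Nd3 (blue) and to its nuclear copy Gm28438 (yellow), stacked for each of the 20 mice. The copy took 64.6% to 81.6% of the sum, and the extremes, S176 and S174, are both hAPOE4 males.

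The division between mt-Nd3 and its copy moved the spread. Gm28438 took 74.2% ± 2.5 of their summed counts in hAPOE3 females (SD, n = 5), 73.3% ± 0.5 in hAPOE3 males, 73.9% ± 1.9 in hAPOE4 females and 70.2% ± 6.8 in hAPOE4 males. In hAPOE4 males the sum ranged from 520 to 762 CPM.

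As a list, all 7 members had a log2 fold change below 0 in females and over both sexes, and 6 of 7 did in males, where 49.7% of all genes tested lay below 0 in each of these comparisons. Their median was -0.34 in females, -0.09 in males and -0.22 over both sexes, against 0.0013, 0.0017 and 0.0016 for all genes tested. At an unadjusted p under 0.05, 5 members were lower in females (6.54% of all genes tested), 1 in males (4.56%) and 3 over both sexes (9.70%). At the adjusted threshold 0 of 7 passed in females (0.667% of all genes) and 0 of 7 in males (0.621%) with edgeR. With the Wald test of DESeq2, mt-Nd6 also passed in females (-0.52, adjusted p = 0.0391). The members' median without the 5 mice with high scores was -0.27 in females, -0.09 in males and -0.17 over both sexes, with 7, 5 and 7 of them below 0; at an unadjusted p under 0.05 there was 1 lower member in females (5.51% of all genes tested), 0 in males (2.56%) and 1 over both sexes (7.06%). The 7 transcripts come from 2 precursor strands of the same genome, so they are not independent of each other. The interval of the female difference excluded 0 for mt-Nd1, mt-Nd2, mt-Nd3, mt-Nd4 and mt-Nd6 before adjustment.

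**Figure D4:**
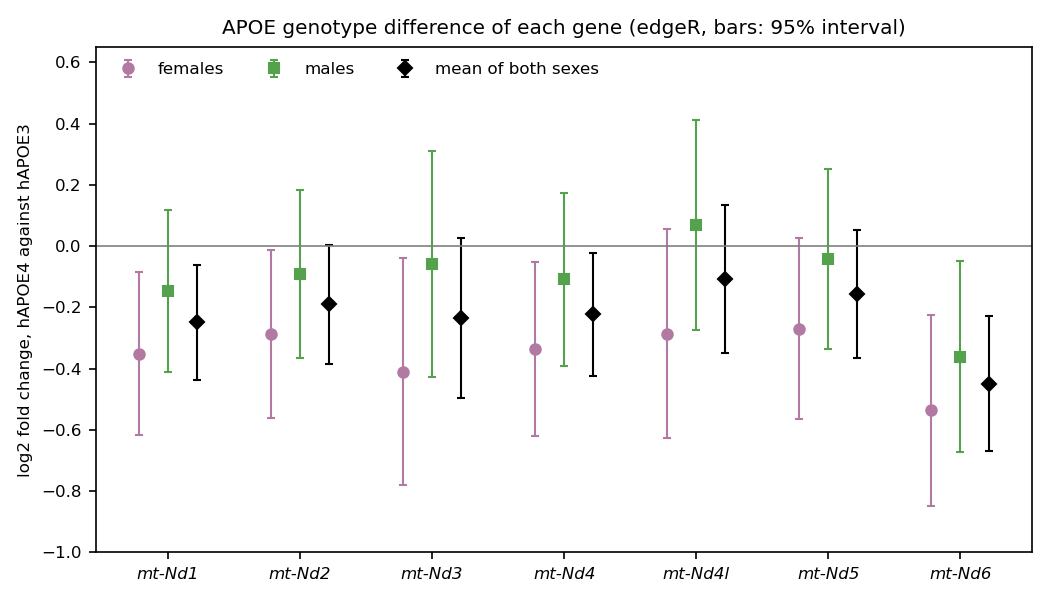
Log2 fold change of each member, hAPOE4 against hAPOE3, from edgeR in females (purple circles), males (green squares) and as the mean of both sexes (black diamonds), with 95% intervals, unadjusted. mt-Nd6 lies lowest in each comparison, at -0.54, -0.36 and -0.45.

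The light-strand gene was then set against the heavy-strand genes within each library, which takes library size out of the comparison. mt-Nd6 counts, as a percentage of the summed counts of the 6 heavy-strand members, were 5.56, 5.47, 5.64, 6.58 and 6.44 in hAPOE3 females and 5.14, 5.27, 4.97, 4.82 and 5.50 in hAPOE4 females. In males they were 5.31, 5.66, 8.51, 6.19 and 6.16 with hAPOE3 and 5.13, 5.33, 5.07, 5.08 and 5.91 with hAPOE4. The hAPOE4 females lay below all hAPOE3 females except that S168 (5.50) was above S145 (5.47). In males S156, at 8.51, stood above all other mice.

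Group means of this share were 5.94% ± 0.53 in hAPOE3 females, 5.14% ± 0.26 in hAPOE4 females, 6.36% ± 1.25 in hAPOE3 males and 5.30% ± 0.35 in hAPOE4 males (SD, n = 5). The log2 ratio differed by -0.21 in females (two-sided exact permutation test, p = 0.0159) and by -0.25 in males (exact permutation p = 0.0476). Over the 4 comparisons within sex or genotype the adjusted exact p-values were 0.0635 in females and 0.0952 in males, neither past the threshold; the smallest p that 5 against 5 allows is 0.00794. As the mean of both sexes, with APOE labels permuted within sex, the difference was -0.23 (exact permutation p = 0.00117).

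That difference was also smaller without the 5 mice with high nuclear complex I scores. Their mt-Nd6 shares were 6.16% to 8.51%, the 5 highest of all 20. All 5 were hAPOE3 mice, so a smaller difference is built into leaving them out. The other hAPOE3 mice had 5.47% to 5.64% (3 females) and 5.31% to 5.66% (2 males), and the 10 hAPOE4 mice had 4.82% to 5.91%. Without the 5 mice the log2 ratio differed by -0.11 in females (exact permutation p = 0.0714) and -0.05 in males (exact permutation p = 0.667). As the mean of both sexes it differed by -0.08 (exact permutation p = 0.0765), past the threshold no longer. With 3 hAPOE3 females and 2 hAPOE3 males left, these tests also had fewer possible arrangements than 5 against 5. Nothing is concluded from the loss.

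**Figure D5:**
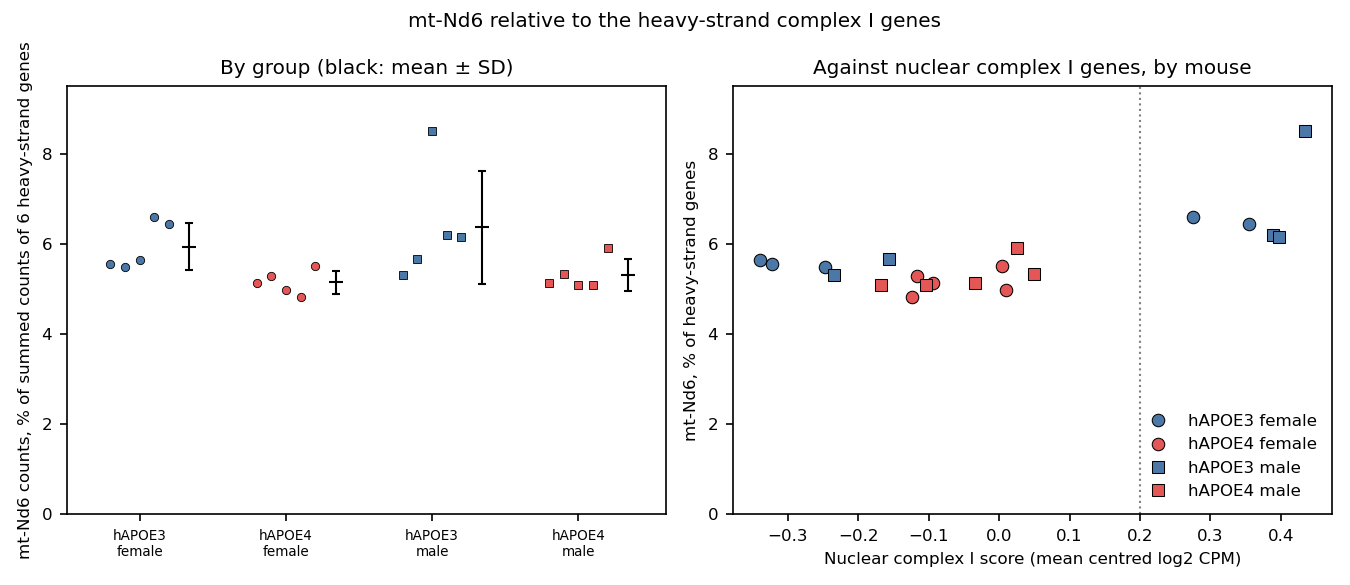
Left, mt-Nd6 counts as a percentage of the summed counts of the 6 heavy-strand members, per mouse and group, with mean and SD in black (n = 5). Right, the same percentage against the nuclear complex I score of each mouse, with a dotted line at 0.2: the 5 hAPOE3 mice to its right have 6.16% to 8.51%, and the other 15 mice, hAPOE3 and hAPOE4, have 4.82% to 5.91%.

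The choice of denominator left the direction as it was. With mt-Nd5 alone, the overlapping neighbour on the other strand, the log2 ratio differed by -0.27 as the mean of both sexes, and with all 12 heavy-strand protein-coding genes by -0.19. With all 12, the female difference was -0.20 with an adjusted exact permutation p of 0.0317. Over the 6 other forms of the ratio that were run, this p was 0.0317 to 0.175 in females, where 2 passed. In males the adjusted exact permutation p was 0.0635 to 0.175, and 0 passed. Sex differences of the ratio were -0.08 in hAPOE3 mice (exact permutation p = 0.635) and -0.04 in hAPOE4 mice (exact permutation p = 0.468), with overlap in both.

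Sex was compared within each genotype. In hAPOE3 mice all 7 members were higher in females, by 0.09 (mt-Nd6) to 0.40 (mt-Nd4l) on the log2 scale, and 0 of 7 passed in edgeR, where 0.0414% of all genes tested did. mt-Nd4l had 775, 949, 581, 733 and 837 CPM in hAPOE3 males against 887 to 1309 in hAPOE3 females, and its difference was the only one with an unadjusted p under 0.05 (0.0249, adjusted p = 0.805). In hAPOE4 mice the differences ran from -0.24 (mt-Nd3) to 0.04 (mt-Nd4l), and 0 of 7 passed (0.437% of all genes), with 0 at an unadjusted p under 0.05. Averaged over the genotypes they ran from -0.06 to 0.22 and 0 of 7 passed (0.129% of all genes). With Gm28438 added, mt-Nd3 differed by 0.17 in hAPOE3 mice, -0.04 in hAPOE4 mice and 0.06 over both genotypes. None of these values passed. Markers of other cells also differed in value between the sexes. All 12 choroid plexus genes were higher in value in females, with a median of 1.31 in hAPOE3 and 1.86 in hAPOE4 mice. All 10 oligodendrocyte genes were lower in value in females, with a median of -0.46 in hAPOE3 and -0.16 in hAPOE4 mice. For all genes tested the medians were 0.0030 in hAPOE3 and -0.0086 in hAPOE4 mice. None of these marker genes passed in edgeR, and their part in the members' values was not tested.

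The interaction, which asks whether the genotype difference itself differed between the sexes, was below 0 for all 7 members, from -0.17 (mt-Nd6) to -0.35 (mt-Nd4l). Its standard errors were 0.18 to 0.25, 0 of 7 passed (0.184% of all genes tested), and 0 of 7 had an unadjusted p under 0.05. A larger genotype difference in females than in males was therefore not established for any member, and the 95% interval for mt-Nd6 ran from -0.61 to 0.27. DESeq2 and limma called 0 of 7 members in the interaction and in all 3 sex comparisons as well. With Gm28438 added, the interaction of mt-Nd3 was -0.21, against -0.35 for mt-Nd3 alone.

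The members did not vary in fixed proportion. Across the 20 mice the log2 ratio of mt-Nd4 to mt-Nd5 had an SD of 0.08 and that of mt-Nd1 to mt-Nd2 an SD of 0.09, the tightest pairs. The ratio of mt-Nd4l to mt-Nd4 had an SD of 0.19, although both are read from the same RNA. Both also have nuclear copies with stretches of identical sequence, whose part in this spread was not tested. mt-Nd4l counts were 8.49% to 13.9% of mt-Nd4 counts, lowest in S156, and the group means were 12.2% ± 1.8 in hAPOE3 females, 10.4% ± 1.5 in hAPOE3 males, 12.4% ± 0.7 in hAPOE4 females and 11.8% ± 1.0 in hAPOE4 males. The authors' normalized counts carry correction factors per gene and mouse, and their values gave no member another direction in the genotype comparisons.

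The other mitochondrial pair with overlapping reading frames, mt-Atp8 and mt-Atp6, spread in a like way: mt-Atp8 counts were 7.41% to 12.4% of mt-Atp6 counts. Both short genes, mt-Nd4l and mt-Atp8, had their highest shares in hAPOE3 females S144, S145 and S146, at 13.1% to 13.9% of mt-Nd4 and 11.4% to 12.4% of mt-Atp6. The same 3 mice had the lowest nuclear complex I scores, -0.34 to -0.25. Most widely spread of all member pairs was mt-Nd3 to mt-Nd4l, with an SD of 0.39, followed by mt-Nd4l to mt-Nd6 with 0.36.

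The members were left out of a search for the genes most like mt-Nd6 across the 20 mice. By Pearson's r of log2 CPM the closest of the other genes tested were mt-Co3 (0.96), mt-Co2 (0.95), mt-Tp (0.95), mt-Atp6 (0.93) and mt-Rnr2 (0.92). These are given as a description over mice that share depth and dissection. All but mt-Tp, the proline transfer RNA gene, lie on the strand opposite to mt-Nd6. Outside the members, the mean of the 6 heavy-strand members was most like mt-Co1 (0.91), mt-Cytb (0.91), mt-Atp8 (0.87), mt-Atp6 (0.86) and the nuclear gene Zfp708 (0.84). Against mt-Co3 counts, mt-Nd6 counts were 15.8% ± 0.6 in hAPOE3 females, 15.0% ± 1.2 in hAPOE3 males, 14.4% ± 0.9 in hAPOE4 females and 14.8% ± 0.7 in hAPOE4 males. On this scale hAPOE4 and hAPOE3 lay closer than against the complex I genes. Because mt-Co3 was picked as most like mt-Nd6 in these same mice, closer values follow in part from that choice. Nothing is concluded from them.

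The remaining mitochondrial protein-coding genes were all lower in value in hAPOE4 mice, and 0 of 6 passed in any genotype comparison in edgeR, with 6 of 6 at an unadjusted p under 0.05 in females (6.54% of all genes tested were lower at that p), 1 of 6 in males (4.56%) and 6 of 6 over both sexes (9.70%). Without the 5 mice with high scores these counts were 1, 0 and 1, and the median moved from -0.38 to -0.22 in females, from -0.16 to -0.03 in males and from -0.28 to -0.12 over both sexes, with 3 of 6 above 0 in males. mt-Atp8 differed most in females, by -0.57 (SE 0.15, adjusted p = 0.0787), and mt-Co3, a structural subunit of cytochrome c oxidase, most over both sexes, by -0.37 (SE 0.11, adjusted p = 0.0627). mt-Co1 differed least over both sexes, by -0.21 (adjusted p = 0.209), and least in females, by -0.27. In males the values ran from -0.34 (mt-Co3) to -0.11 (mt-Atp8).

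The nuclear partners of the members in complex I did not pass either with all 20 mice. Of the 7 core subunits of the matrix arm, 0 passed in any comparison; the list median was 0.03 in females and -0.17 in males. Ndufs1, which carries iron-sulfur clusters, was highest at 0.14 in females and 0.05 in males, and the lowest values were those of Ndufv2 in females (-0.09) and Ndufs8 in males (-0.26). Of the 31 accessory subunits 29 passed the filter on low counts and 0 passed a test; their median was -0.08 in females and -0.28 in males. Ndufa5 had the lowest value over both sexes, -0.35 (SE 0.10, adjusted p = 0.0785), and Ndufa9 the highest, 0.06. The lowest by sex were Ndufa5 in females (-0.31) and Ndufa13 in males (-0.39), and the highest was Ndufa9 in both (0.15 and -0.03). These medians rest on the mice with high scores, which were set apart by the same genes. Without them the core median was 0.26 in females and 0.20 in males, and the accessory median 0.23 and 0.14. The male medians thus turned from below to above 0. In that fit 6 genes passed over both sexes (edgeR, adjusted p 0.0122 to 0.0447), where 0.744% of all genes tested did. They were Ndufa11, Ndufb10, Ndufb7, Ndufs8, Ndufa2 and Ndufb2, all higher in hAPOE4 mice, at 0.25 to 0.38. Every mouse left out was hAPOE3 and was chosen for high values of these genes. Higher values in hAPOE4 mice are thus built into this fit, and nothing is concluded from these calls.

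Factors that assemble complex I or make its mitochondrial transcripts were next. Among 17 assembly factors tested 0 passed, with values over both sexes from -0.15 (Ndufaf8) to 0.15 (Ndufaf7, adjusted p = 0.149), a methyltransferase that acts on a core subunit. By sex they ran from -0.18 (Ndufaf4) to 0.26 (Ndufaf7) in females and from -0.30 (Ndufaf8) to 0.075 (Ndufaf1) in males. Among 14 genes of mitochondrial transcription and replication 0 passed, from -0.15 (Ssbp1, the mitochondrial single-strand binding protein) to 0.20 (Mgme1, a mitochondrial exonuclease, adjusted p = 0.185) over both sexes. In females they ran from -0.19 (Ssbp1) to 0.33 (Mgme1) and in males from -0.11 (Ssbp1) to 0.11 (Top1mt, a mitochondrial topoisomerase). Among 17 genes of mitochondrial RNA processing and stability 0 passed, from -0.19 (Slirp) to 0.17 (Mtpap, the mitochondrial polyA polymerase). In females Slirp (-0.14) and Mtpap (0.28) also had the extreme values, and in males Slirp (-0.23) and Lrpprc (0.13). In these 3 lists 0 genes passed without the 5 mice with high scores as well, and the male value of Slirp turned to 0.23.

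The RNA-binding proteins known to act on mitochondrial mRNAs showed small values. Lrpprc, which with Slirp stabilises mitochondrial mRNAs, differed by 0.16 over both sexes (SE 0.07, adjusted p = 0.258), and Slirp by -0.19 (SE 0.11, adjusted p = 0.382). Grsf1, a granule protein that binds G-rich RNA of the light strand, differed by -0.04 (SE 0.04, adjusted p = 0.696). Fastk, whose mitochondrial form is required for mt-Nd6 mRNA, differed by -0.05 (SE 0.07, 95% interval -0.19 to 0.08, adjusted p = 0.702). None of these 4 genes passed.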

How the data were processed

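Hippocampal polyA RNA of 20 mice was sequenced as paired reads of 75 bases. The authors assigned reads to mouse transcripts (Ensembl 95) with Salmon 0.91, and tximport gave a value per gene; the deposited values are estimated counts in whole numbers (0 columns were rounded or left out). A second deposited table holds the authors' DESeq2-normalized counts, a signal used here in alternatives only. Strandedness was not given in the sources used here.

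Groups follow the labels. The sources used here do not say whether mice of a group were processed together. The p-values measure the spread between mice. A processing difference between groups could not be told apart from a group difference. From the counts, edgeR 4.0.16 in R 4.3.3 was fitted with TMM normalization, filterByExpr by group (21724 of 33119 genes), one mean per group, and glmQLFit and glmQLFTest, with Benjamini-Hochberg adjustment over all genes tested and a threshold of 0.05. Differences were taken as hAPOE4 minus hAPOE3 and females minus males. CPM are TMM-normalized. Log2 CPM for scores and likeness used a prior count of 2. Ratios within libraries were compared by two-sided exact permutation tests (scipy 1.17.1). Scripts were tested on simulated data. Sequences came from GENCODE M21 transcripts (GRCm38), whose gene symbols matched 31059 of the 33119 genes, and nuclear copies from BLAST+ 2.17.0 (at least 95% identity over 75 bases); the authors' Ensembl release was another one of the same build.

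The members and gene lists were chosen with earlier results of these data known. Genes named are the members. For each list of mitochondrial or complex I genes, those past the threshold and the lowest and highest in the genotype comparisons are named too. Further names are Lrpprc, Slirp, Grsf1, Fastk, and the 5 genes outside the members most like mt-Nd6 and most like the heavy-strand mean. Kdr and Bok were added after their values were seen. Alternatives covered the test (DESeq2 1.42.0; limma 3.58.1 on log2 of normalized counts with 1 added), normalization, filter, groups in the fit, the ratio's denominator and each mouse left out. Adding nuclear copies and leaving out the 5 mice with high nuclear complex I scores were chosen after seeing the data.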

Additional observations from a re-analysis of the deposited data

Results flagged for a closer look

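In a check of single mice within groups (members' CPM, the mt-Nd6 share, the mt-Nd4l to mt-Nd4 share and the share of the mt-Nd3 copy; 40 tests, of which chance would mark about 1 in 20), 2 values stood far from the rest of their group, both in hAPOE3 male S156. Its mt-Nd3 level was 267.3 CPM, against 173.2 to 191.4 CPM in the other 4 hAPOE3 males. Its mt-Nd6 counts were 8.51% of the heavy-strand sum, against 5.31% to 6.19%. Leaving S156 out changed the male log2 ratio difference to -0.14. The mouse also had the highest nuclear complex I score, 0.43.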

How the results depend on the processing

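The lower mt-Nd6 level over both sexes passed under all 8 other tests, normalizations and filters run (adjusted p 0.00235 to 0.0443). It did not pass in 5 of 20 fits that left out 1 mouse (-0.49 to -0.39 over all 20), nor without the 5 mice with high nuclear complex I scores (-0.24). No paired analysis was possible because each mouse belongs to 1 group and nothing in the labels ties mice of different groups together.

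The log2 ratio of mt-Nd6 to the heavy-strand genes passed in females with all 12 heavy-strand genes (-0.2005) or without mt-Nd3 and mt-Nd4l (-0.2054), and ran from -0.23 to -0.17 with 1 mouse left out. In males it ran from -0.31 to -0.14. Without the 5 mice it was -0.082 over both sexes, and 0.020 for females against males in hAPOE3, a comparison that ran from -0.15 to 0.025 with 1 mouse left out.

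Uncalled male genotype differences that changed sign were those of mt-Nd2 (0.0008), mt-Nd3 (0.11) and mt-Nd4l (-0.093) without the 5 mice. With 1 mouse left out, mt-Nd3 ran from -0.17 to 0.090, mt-Nd4l from -0.034 to 0.15 and mt-Nd5 from -0.13 to 0.027.

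Of all genes tested, edgeR called 0.667% for genotype in females, 0.621% in males and 2.45% over both sexes, 0.0414% for sex in hAPOE3, 0.437% in hAPOE4 and 0.129% over both genotypes, and 0.184% for the interaction. The Wald test of DESeq2 called 1.37%, 1.21%, 4.83% (1163 genes against 532), 0.0856%, 0.916%, 0.72% and 0.382%, in that order. Without the 5 mice edgeR called 0.416%, 0.136% and 0.744% for genotype, 0.648% for sex in hAPOE4 (more genes, although no hAPOE4 mouse was left out), 0.0657% for sex over both genotypes and 0% for the interaction. Without a filter it called 0.308% (females), 1.26% (both sexes) and 0.0272% (sex in hAPOE3), and 0.667% (males) and 0.571% (sex in hAPOE4). With at least 1 CPM in 5 mice it called 0.504% for genotype in males, 0.144% for the interaction and 0.282%, with 2 groups in the fit 0.155%, and limma called 0.216%, for sex in hAPOE4. With 2 groups it called 0.219% for genotype in males. limma called 0.0414% for sex over both genotypes and 0.0737% for the interaction. With 1 mouse left out these shares ran from 0.335% to 1.16%, 0.449% to 1.3% and 1.28% to 3.57% for genotype, 0.317% to 1.24% for sex in hAPOE4, 0.0633% to 0.749% for sex over both genotypes, and 0.136% to 0.533% for the interaction. The cause of these changes was not tested. Depth did not limit the members, whose counts were at least 4885.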
